A study of Mus musculus with 10 samples.

Results

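The integrated stress response and the amino acid genes that it controls were followed in cultured mouse keratinocytes, the main cells of the epidermis. The gene set was a list of 33 genes named by function, drawn up with earlier results of these data known: sensors of stress and the phosphatase subunit that turns the response off, transcriptional regulators, stress effectors, and enzymes and transporters of amino acids. Of these, 31 were measured by 72 probe sets, out of 18194 genes with a value in the array table. Pycr1 and Eif2s1 were not analysed here because no probe set carried either of them as its only gene symbol. Of the measured genes, 9 rested on 1 probe set and 22 on the mean of several.

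mRNA was measured on 10 Affymetrix mouse expression arrays, each hybridized with RNA from primary keratinocytes of newborn (P1) FVB mice. Undifferentiated keratinocytes (n = 2 arrays) were held in medium with 0.05 mM calcium. Differentiated keratinocytes (n = 4) were switched to 0.4 mM calcium for 2 days. The 5-AZA group (n = 2) was differentiated in the same way and received 1 µM 5-azacytidine, a cytidine analogue that lowers DNA methylation, from soon after seeding by the study's methods and after 1 day in culture by the labels. The A-C/EBP group (n = 2) was differentiated while it expressed A-C/EBP, a dominant negative protein that pairs with C/EBP transcription factors and keeps them from DNA. That transgene is carried by the mice, acts in keratinocytes under tetracycline control and was switched on by removing doxycycline. The sources do not say whether the differentiated controls carried the transgene or met doxycycline, so these cannot be told apart from A-C/EBP itself. They also do not say whether replicates were separate cultures, so a p-value speaks of the spread between these arrays alone, which may be technical. Values are log2 levels, normalized across arrays by the authors, and a value is compared only with the same gene in other arrays.

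Arrays of a group were close to each other, with r = 0.99 to 0.996 across genes, which are not independent replicates. A-C/EBP replicate 2 stood apart in its hybridization controls, transcripts added to every sample, with a mean of 11.3 against 9.03 to 10.6 in the other arrays. Cell type markers were described over all arrays alike, which does not check the group labels. All 10 measured keratinocyte markers were above the median probe set in every array. So were 5 of 6 melanocyte, 4 of 8 fibroblast, 3 of 7 immune, 2 of 4 muscle and 1 of 4 endothelial markers. Below that median in every array were 4 immune, 3 endothelial, 2 adipocyte, 1 fibroblast and 1 muscle marker. In such mixed RNA, fewer cells of a type and less RNA per cell cannot be told apart. Among the measured stress response genes, Eif2ak4 lay below the median probe set in 10 arrays, Slc1a5 in 3 and Slc7a11 in 2, so differences in these genes rest on low signals.

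The integrated stress response is a shared output of several kinases. Each phosphorylates the translation factor eIF2 when a different stress is sensed, among them PERK (Eif2ak3) at the endoplasmic reticulum and GCN2 (Eif2ak4) when amino acids run short. General translation then slows while the mRNA of Atf4 is translated more, and the ATF4 protein, often paired with a C/EBP protein, switches on genes for amino acid uptake, amino acid synthesis and cell death. ATF4 activity is thus set largely at translation, which these arrays do not measure, and mRNA levels of its targets are what they show. The composite element bound by such C/EBP and ATF pairs is known from genes including Asns, Trib3 and Chac1.

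Promoter windows from RefSeq (mouse build GRCm38.p6) were searched from 250 bases before to 50 bases after the annotated start, on both strands, for 7 motifs. Windows were found for 29 of the 33 listed genes, 36 windows in all; Cth, Slc7a5, Slc1a5 and Eif4ebp1 had none. The C/EBP-ATF composite element TGATGNAAN was present in 9 of these genes (Trib3, Chac1, Nupr1, Asns, Pycr1, Slc7a11, Slc1a4, Vldlr and Fgf21). It occurred in 25.0% of their windows and in 3.95% of all 32851 promoter windows. The windows of Phgdh, Psat1, Shmt2 and Mthfd2 held no match. A match is a description of these letters and not evidence of binding.

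Stretches around the match are printed for the genes with the element that changed in any comparison, Nupr1 and Slc1a4. Asns and Chac1, textbook targets, and Slc7a11, whose window holds a pair of matches facing opposite ways, are added as genes that did not pass the test on differentiation. Each is given 5′ to 3′ on the gene's own strand, with the element in capitals. The Nupr1 stretch is chr7:126625543-126625611 (minus strand), that of Slc1a4 is chr11:20332694-20332748 (minus), that of Asns is chr6:7693194-7693262 (minus), that of Chac1 is chr2:119351018-119351086 (plus) and that of Slc7a11 is chr3:50443623-50443709 (minus).
Nupr1: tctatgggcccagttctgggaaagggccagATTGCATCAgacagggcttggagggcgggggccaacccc
Slc1a4: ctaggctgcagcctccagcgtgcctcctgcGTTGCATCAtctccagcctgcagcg
Asns: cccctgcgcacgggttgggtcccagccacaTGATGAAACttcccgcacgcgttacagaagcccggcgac
Chac1: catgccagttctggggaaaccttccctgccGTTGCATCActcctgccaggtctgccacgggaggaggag
Slc7a11: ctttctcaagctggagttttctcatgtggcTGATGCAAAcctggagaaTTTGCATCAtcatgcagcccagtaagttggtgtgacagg
The element read as GTTGCATCA on the printed strand occurs in Slc1a4 and Chac1 alike, and in Slc1a4 it spans the annotated start.

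The cAMP response element TGACGTCA, a CREB and ATF site, occurred in 1 member window, that of Ppp1r15a, and in 1.79% of all windows. The match lies 12 to 5 bases before the start, in the stretch chr7:45526249-45526310 (minus strand), shown because Ppp1r15a rose on differentiation.
Ppp1r15a: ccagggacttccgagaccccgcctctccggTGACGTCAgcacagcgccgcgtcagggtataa
The AP-1 site (TGACTCA or TGAGTCA) was in windows of Ddit3 and Slc7a1, 5.56% of member windows against 5.2% of all windows. The shorter site TGACG, which lies within the cAMP response element, was in windows of 12 genes, 33.3% of member windows against 20.8% of all windows. The C/EBP site TTGCGCAA was in no member window and in 0.183% of all windows. Its looser form TTNNNCAA was in windows of 9 genes, 27.8% of member windows against 36.7% of all windows. The ER stress element was in no member window and in 0.119% of all windows.

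**Figure D1:**
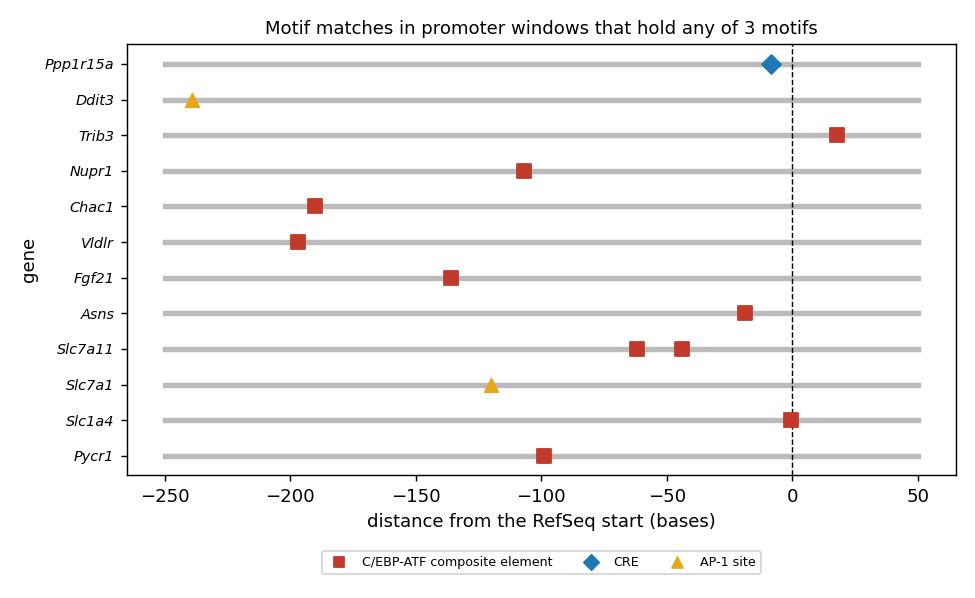
Positions of motif matches (symbols) along the promoter windows (grey bars) of the 12 genes whose window holds the C/EBP-ATF composite element, the cAMP response element (CRE) or the AP-1 site; the horizontal axis is the distance from the RefSeq start in bases and the dashed line is the start. The 9 genes with the composite element carry it at different distances, and Slc7a11 carries it at 2 positions.

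The comparison of differentiated with undifferentiated keratinocytes asks how these genes change as the cells stop dividing and build the outer layer of the skin. Phgdh and Psat1 of serine synthesis, the folate enzymes Shmt2 and Mthfd2, Aldh18a1 of proline synthesis and 4 amino acid transporters had lower mRNA levels after differentiation, while the stress regulators Nupr1 and Ppp1r15a had higher ones. Of the 31 genes, 9 fell and 3 rose at a limma adjusted p under 0.05. Over all 18194 genes, 9.13% fell and 6.64% rose. At the threshold of 0.5 on the log2 scale that the study's methods state, 8 genes were lower and 3 higher, against 8.87% and 7.23% of all genes. The median log2 fold change was −0.23 over these genes and −0.01 over all genes. At an unadjusted p under 0.05, 4 of the 31 genes were higher and 12 lower, against 11.1% and 14.7% of all genes.

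**Figure D2:**
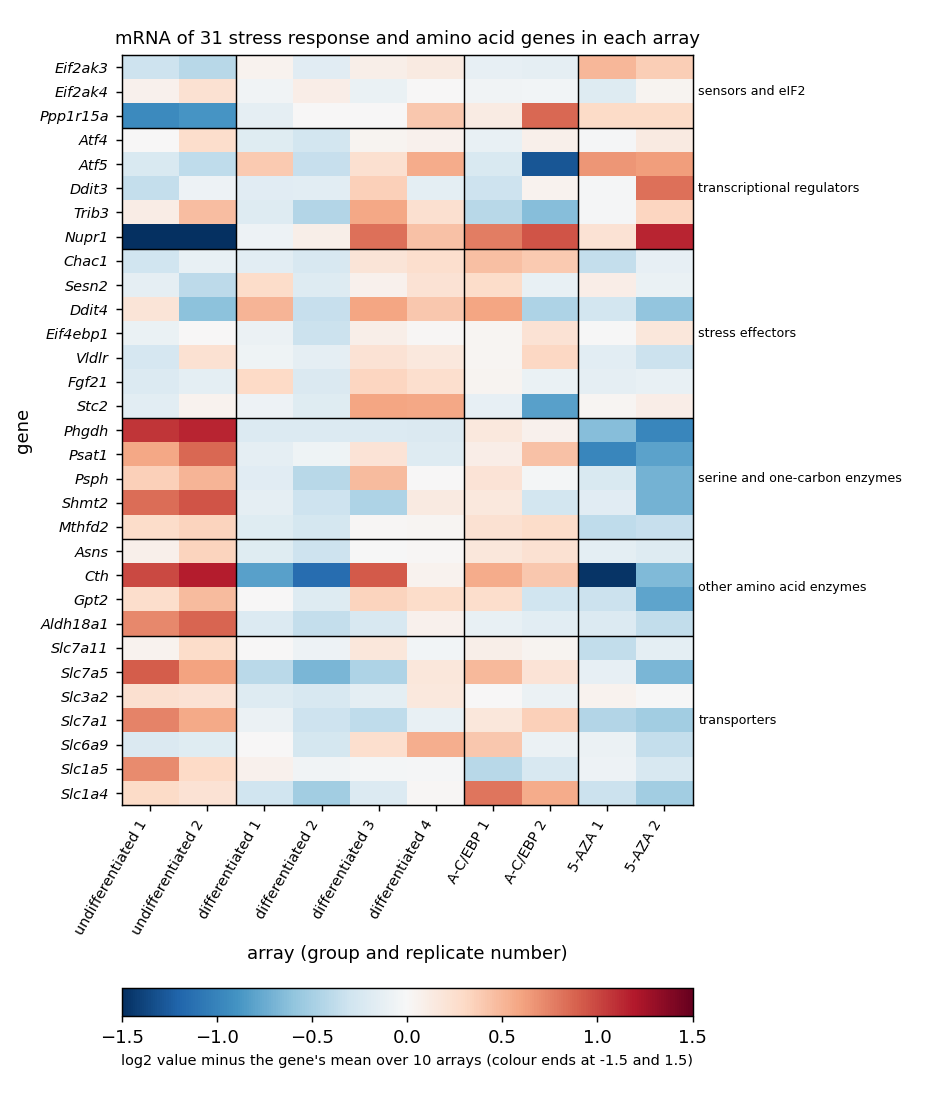
Log2 level of each of the 31 genes (rows, grouped by role) in each of the 10 arrays (columns, by group and replicate number), minus the gene's mean over the 10 arrays; red is higher and blue lower, and the colour scale ends at −1.5 and 1.5. The serine and one-carbon enzymes and several transporters are red in both undifferentiated arrays, whereas Nupr1 is dark blue there and goes past the end of the scale.

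Of the 5 serine and one-carbon enzymes, 4 fell and 1 did not pass. These enzymes make serine from a glycolytic intermediate and pass its carbon to folate, which feeds nucleotide synthesis. Phgdh, the enzyme of the committed step, had log2 levels of 11.17 and 11.24 in the undifferentiated arrays and 9.90, 9.90, 9.90 and 9.89 in the differentiated arrays. The groups were far apart, and the 4 differentiated arrays spanned 0.02, the narrowest range of the 31 genes. That is the range of a mean over 4 probe sets, which hides their own spread: 1 of them had 10.24, 10.16, 10.01 and 10.19. Phgdh thus fell by 1.31 in log2 units, with a standard error (SE) of 0.10 and an adjusted p = 5.65e-05, which is a 2.47-fold lower level. Its 4 probe sets gave −1.20 to −1.36. All 4 end in _x_at, so Phgdh could not be tested in the alternative without probe sets ending in _x_at or _s_at.
Psat1, the aminotransferase of the following step, had levels of 10.66 and 10.94 in undifferentiated and 9.94, 10.01, 10.28 and 9.88 in differentiated keratinocytes. The groups did not overlap, and Psat1 fell by 0.77 (SE 0.15, adjusted p = 0.00533). Without undifferentiated replicate 2, it did not pass (adjusted p = 0.07, the highest of its 21 limma alternatives, whose lowest was 0.00136). Psph, the phosphatase of the last step, had 10.23 and 10.38 against 9.70, 9.46, 10.35 and 9.88. Its groups overlapped through differentiated replicate 3, and the log2 fold change of −0.46 (SE 0.22, adjusted p = 0.246) did not pass. Psph was called under 3 of 23 alternatives, among them without that array (−0.63, adjusted p = 0.0425).
Shmt2, the mitochondrial enzyme that splits serine into glycine and a folate-bound carbon, had 8.27 and 8.38 against 7.30, 7.13, 6.97 and 7.57. Every differentiated array lay below both undifferentiated arrays, and Shmt2 fell by 1.08 (SE 0.20, adjusted p = 0.00426). Mthfd2, the next enzyme of the mitochondrial folate pathway, had 9.14 and 9.20 against 8.69, 8.61, 8.89 and 8.90. It fell by 0.40 (SE 0.11, adjusted p = 0.0284), a small change whose call was lost without differentiated replicate 1 and without either undifferentiated array (adjusted p = 0.00940 to 0.175 over its 21 limma alternatives).

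Of the 7 transporters, 4 fell, none rose and 3 did not pass. Slc7a5, the exchanger that brings in leucine and other large neutral amino acids, had levels of 9.35 and 9.05 in undifferentiated and 8.04, 7.76, 7.98 and 8.61 in differentiated keratinocytes. It fell by 1.10 (SE 0.23, adjusted p = 0.00892), a 2.15-fold lower level, but did not pass without undifferentiated replicate 1 (adjusted p = 0.106, the highest of its 21 limma alternatives, from 3.39e-04). Slc3a2, the chain that carries Slc7a5 to the membrane, had 10.46 and 10.44 against 10.02, 9.98, 10.07 and 10.38. The groups did not overlap, and the log2 fold change of −0.34 (SE 0.12, adjusted p = 0.0899) did not pass. Slc3a2 was called under 4 of 23 alternatives, among them without differentiated replicate 4 (−0.43, adjusted p = 0.0167).
Slc7a1, a transporter of arginine and lysine, had 8.69 and 8.51 against 7.86, 7.63, 7.57 and 7.84. It fell by 0.88 (SE 0.12, adjusted p = 7.37e-04), and its probe sets gave −1.39, −1.03 and −0.21, the last of them dim with a mean level of 4.33. Slc1a5, a glutamine transporter, had 5.67 and 5.25 against 5.02, 4.90, 4.93 and 4.94.
Slc1a5 fell by 0.52 (SE 0.12, adjusted p = 0.0182), and its probe sets gave −0.97 and, in a dim one with a mean level of 4.12, −0.06. Without undifferentiated replicate 1 the log2 fold change was −0.31 and did not pass (adjusted p = 0.236, the highest of its 21 limma alternatives, from 0.00845). Slc1a4, a transporter of alanine, serine and cysteine, had 6.88 and 6.81 against 6.30, 6.08, 6.39 and 6.62. It fell by 0.50 (SE 0.15, adjusted p = 0.0459), close to the threshold: the call held under 11 of 23 alternatives. It was lost without either undifferentiated array, either 5-AZA array or differentiated replicate 1, 2 or 3, and the adjusted p ran from 0.00356 to 0.246 over the 21 limma alternatives. Slc7a11, which takes up cystine, and Slc6a9, a glycine transporter, had log2 fold changes of −0.15 and 0.34, and neither passed. The probe sets of Slc7a11 differed in sign, with 0.23 and −0.54.

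Of the 4 other enzymes measured, Aldh18a1 fell and 3 did not pass. Aldh18a1, which starts proline synthesis from glutamate, had levels of 7.52 and 7.68 in undifferentiated and 6.60, 6.44, 6.56 and 6.87 in differentiated keratinocytes, and fell by 0.98 (SE 0.13, adjusted p = 6.30e-04). Asns, asparagine synthetase and a common marker of ATF4 activity, had 11.47 and 11.73 against 11.22, 11.09, 11.39 and 11.42. The arrays of Asns did not overlap, yet the difference of −0.32 (SE 0.12, adjusted p = 0.111) did not pass. Asns was called under 2 of 23 alternatives. Cth, which releases cysteine from cystathionine, had 7.34 and 7.53 against 5.54, 5.21, 7.28 and 6.41. The mean difference of Cth was the lowest of the 31 genes at −1.33, but the differentiated arrays alone spanned 2.07 and the test did not pass (SE 0.48, adjusted p = 0.1). Without differentiated replicate 3, the high array, Cth was called at −1.72 (adjusted p = 0.00905), and its adjusted p ran from 0.00103 to 0.349 over 21 limma alternatives. Gpt2, the mitochondrial alanine aminotransferase, had −0.26 (adjusted p = 0.525).

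Among sensors and the phosphatase subunit, 2 of 3 genes rose. Ppp1r15a (GADD34), which directs a phosphatase to eIF2 and so ends the response, had levels of 7.77 and 7.84 in undifferentiated and 8.60, 8.73, 8.74 and 9.14 in differentiated keratinocytes. The groups were clearly separate, and Ppp1r15a rose by 1.00 (SE 0.20, adjusted p = 0.00684), which is 2-fold. Without undifferentiated replicate 1 the adjusted p was 0.0687, the highest of 21 limma alternatives, from 0.00175. Eif2ak3 (PERK) had 5.45 and 5.34 against 5.81, 5.59, 5.85 and 5.89 and rose by 0.39 (SE 0.11, adjusted p = 0.033). That call held under 11 of 23 alternatives and was lost without either undifferentiated array and without differentiated replicate 1, 3 or 4, with an adjusted p from 0.0048 to 0.226 over the 21 limma alternatives. Its probe sets gave 0.68, 0.29 and 0.20, the 0.29 in a dim one with a mean level of 3.51. Eif2ak4 (GCN2) had −0.16 (adjusted p = 0.418).

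Of the 5 transcriptional regulators, Nupr1 rose and 4 did not pass. Nupr1, a small chromatin protein induced by many stresses, had levels of 7.84 and 8.55 in undifferentiated and 10.29, 10.45, 11.19 and 10.81 in differentiated keratinocytes. The gap between the groups was wider than the spread within either, and Nupr1 rose by 2.49 on the log2 scale (SE 0.31, adjusted p = 5.03e-04), or 5.61-fold. Both of its probe sets gave nearly this change, 2.47 and 2.50. The other 4 regulators had smaller differences.
Atf4 itself had 8.74 and 9.0 against 8.55, 8.46, 8.77 and 8.80, with a log2 fold change of −0.23 (95% interval −0.52 to 0.07, adjusted p = 0.341). Ddit3 (CHOP), a C/EBP relative that promotes cell death, had 6.65 and 6.93 against 6.83, 6.84, 7.36 and 6.85, a log2 fold change of 0.18 (−0.35 to 0.71). The brighter of its probe sets gave 0.41 and the dimmer −0.06. Trib3, a pseudokinase that restrains ATF4, had −0.24 (−0.81 to 0.33). These 3 intervals include 0 and changes of about the sizes seen in Mthfd2 or Slc1a5, so smaller changes are not settled by this number of arrays.
Atf5, a relative of ATF4, had 10.27 and 10.12 against 10.89, 10.15, 10.74 and 11.06. Its level was higher in 3 of the 4 differentiated arrays than in both undifferentiated arrays, and the log2 fold change of 0.51 (SE 0.29, adjusted p = 0.327) did not pass.

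None of the 7 stress effectors passed, and their log2 fold changes ranged from −0.03 to 0.49. Ddit4, an inhibitor of the growth kinase mTORC1, had 0.49 (SE 0.34) and Sesn2, another inhibitor of it, had 0.35 (SE 0.16, adjusted p = 0.2). Chac1, which degrades glutathione, had 0.22, and Stc2, a secreted glycoprotein, had 0.28. Fgf21, a hormone of fasting, had 0.33, Vldlr, a lipoprotein receptor, had 0.06, and Eif4ebp1, which holds back the translation factor eIF4E, had −0.03. The genes with the composite element in their window did not share a direction: of the 8 that were measured, Nupr1 rose, Slc1a4 fell and 6 did not pass.

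**Figure D3:**
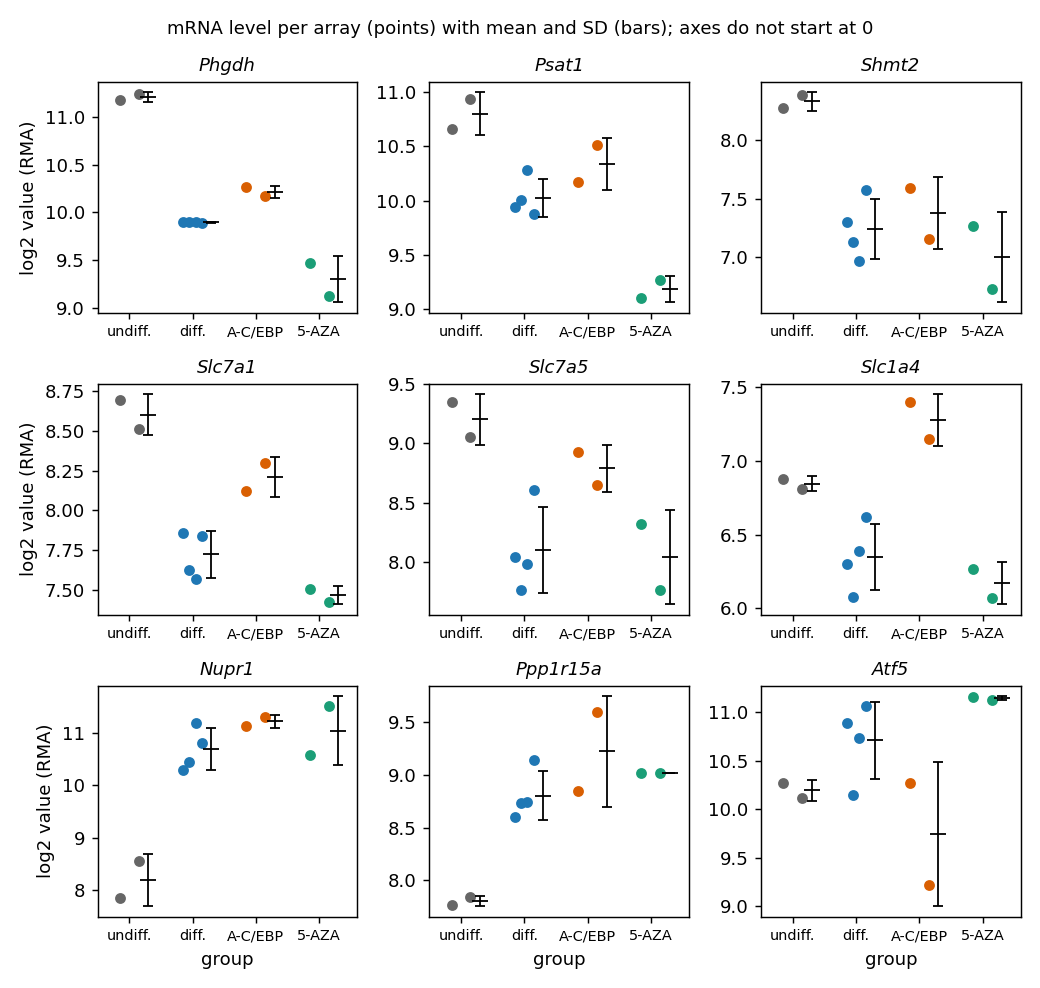
Log2 level per array (points) of 9 genes in the undifferentiated, differentiated, A-C/EBP and 5-AZA groups, with the mean and SD of each group (bars beside the points); each panel has its own axis, which does not start at 0. Phgdh lies at 11.2 in undifferentiated arrays, 9.90 in differentiated arrays and 9.47 and 9.13 with 5-AZA, and Slc1a4 is highest in the A-C/EBP arrays.

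Related gene lists, written from general knowledge, were described in the same fit, in which 6.64% of all genes rose and 9.13% fell on differentiation. Of 19 measured cytosolic aminoacyl-tRNA synthetases, which load amino acids onto tRNA and include many ATF4 targets, 8 fell, none rose and 11 did not pass, with a median of −0.34. Among them Iars, the isoleucine enzyme, fell by 0.87, Eprs by 0.73 and Kars by 0.67. Of 18 genes of eIF2, its exchange factor eIF2B and their regulators, 4 fell, none rose and 14 did not pass, with Eif2b4 at −0.55, Eif2b3 at −0.49 and Eif2s3x at −0.48.
Of 16 genes of the unfolded protein response of the endoplasmic reticulum, 9 fell, none rose and 7 did not pass. Their median was −0.59, and Sdf2l1, a chaperone cofactor, fell by 1.46, the chaperone Hsp90b1 by 1.25 and Manf by 1.08. The rise of Eif2ak3 was thus measured in arrays where chaperone genes of the same compartment were lower.
Of 23 other genes of the ATF4 network, 5 rose, 2 fell and 16 did not pass. Atf3, a stress-induced repressor and activator, rose by 1.20 (SE 0.25, adjusted p = 0.00817), with 5.93 in both undifferentiated arrays and 6.97, 6.87, 7.41 and 7.25 in the differentiated ones. Klhl24 rose by 1.10 and Hmox1, a haem-degrading enzyme of the oxidative stress response, by 1.04.
Of 36 other genes of amino acid metabolism and transport, 5 rose, 11 fell and 20 did not pass. The rises were large: Arg1, which splits arginine into ornithine and urea, rose by 4.07 on the log2 scale (SE 0.17, adjusted p = 1.35e-06), the broad transporter Slc6a14 by 3.10 and glutamine synthetase (Glul) by 2.48. Arg1 lay at 9.20 and 8.73 in undifferentiated and between 12.74 and 13.28 in differentiated arrays. Slc6a14 lay at 6.42 and 6.58 and between 9.41 and 9.91. Arg1 and Slc6a14 thus rose by more than any of the 31 genes, in arrays where the serine enzymes were lower. Of 13 genes of mTORC1 and starvation signalling, Castor1 fell by 0.40 and 12 did not pass, a count near the share of all genes.
Some other measures moved with differentiation. The summed level of the 10 keratinocyte markers was 14.9 to 15.03 in undifferentiated and 14.2 to 14.57 in differentiated arrays, and that of 4 muscle genes was 8.52 to 9.10 and 9.95 to 10.99. The part of these shifts in the changes above was not tested.

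The comparison of A-C/EBP with differentiated keratinocytes asks which of these genes depend on C/EBP proteins. Slc1a4 had a higher mRNA level with A-C/EBP, and the other 30 genes did not pass. Thus 1 gene rose and none fell, against 1.49% and 0.583% of all genes. At more than 0.5 on the log2 scale, 4 genes were higher (Cth, Nupr1, Slc7a5 and Slc1a4) and 3 lower (Atf5, Stc2 and Trib3), against 3.7% and 3.03% of all genes. At an unadjusted p under 0.05 in limma, 7 were higher and 4 lower, against 8.05% and 5.52% of all genes. The two-tailed test that the study's methods name, run gene by gene, called 4 higher and 1 lower without adjustment, against 6.38% and 3.89% of all genes, and 0 with it.

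Slc1a4 had log2 levels of 7.40 and 7.15 with A-C/EBP, against 6.30, 6.08, 6.39 and 6.62 in differentiated and 6.88 and 6.81 in undifferentiated keratinocytes. Both A-C/EBP arrays lay above every other array. It rose by 0.93 (SE 0.15, adjusted p = 0.0148), which is 1.90-fold, and its 3 probe sets gave 0.84, 0.69 and 1.25. The rise was 0.80 without A-C/EBP replicate 1 (adjusted p = 0.0779) and 1.06 without replicate 2, the array whose hybridization controls stood apart (adjusted p = 0.0706). Over 21 limma alternatives, the adjusted p ran from 0.00441 to 0.084, the highest with differentiated arrays 3 and 4 only. The differentiated arrays that serve here are those in which Slc1a4 was lower than in undifferentiated keratinocytes.
Slc7a1 had 8.12 and 8.30 against 7.86, 7.63, 7.57 and 7.84, a log2 fold change of 0.48 (SE 0.12, adjusted p = 0.072). Slc7a5 had 8.93 and 8.65 against 8.04, 7.76, 7.98 and 8.61, a log2 fold change of 0.69 (SE 0.23, adjusted p = 0.198). Neither passed, although both A-C/EBP arrays lay above all differentiated arrays.
The 5 serine and one-carbon enzymes all had log2 fold changes above 0, from 0.11 to 0.35, and none passed. Of all 18194 genes, 9586 lay above 0 and 8608 below. Phgdh had 10.26 and 10.17 against 9.89 to 9.90, and Mthfd2 had 9.10 and 9.15 against 8.61 to 8.90; in both the A-C/EBP arrays lay above the differentiated ones. The levels of Phgdh stayed below the undifferentiated 11.17 and 11.24.

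Of the 5 transcriptional regulators none passed with A-C/EBP, 3 had log2 fold changes below 0 and 2 above. Atf5 had 10.27 and 9.22 against 10.89, 10.15, 10.74 and 11.06, a log2 fold change of −0.97 (SE 0.29, adjusted p = 0.143). Most of that difference came from replicate 2, while replicate 1 lay within the range of the differentiated arrays. Without replicate 1, Atf5 was called as lower. The stress effector Stc2 had 6.57 and 5.87 against 6.61, 6.51, 7.28 and 7.27 (log2 fold change −0.70, adjusted p = 0.246). Trib3 had 7.95 and 7.72 against 8.17, 7.92, 8.94 and 8.60 (−0.57, adjusted p = 0.365). Nupr1 had 0.54 (SE 0.31, adjusted p = 0.528), Atf4 had 0.07 (95% interval −0.23 to 0.36) and Ddit3, itself of the C/EBP family, had −0.09 (−0.63 to 0.44). The probe sets of Ddit3 differed in sign, with −0.41 in the brighter and 0.23 in the dimmer one. Of the 8 measured genes with the composite element, only Slc1a4 passed.

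In the related lists, the amino acid genes Slc1a1, Slc7a7 and Cbs rose with A-C/EBP and none of 36 fell. Among all genes, 1.49% rose and 0.583% fell. Slc1a1, a glutamate and cysteine transporter of the same family as Slc1a4, had 8.40 and 8.44 against 5.88, 5.65, 5.04 and 5.74. It rose by 2.84 (SE 0.25, adjusted p = 6.99e-04), the largest change with A-C/EBP in these lists. Slc7a7 rose by 0.76, Cbs, which makes cystathionine, by 0.46, and Rragd, a GTPase that brings amino acid signals to mTORC1, by 0.78. Eif2b3, a subunit of eIF2B, fell by 0.51 (SE 0.08, adjusted p = 0.0178). None of the 19 tRNA synthetases, 16 unfolded protein response genes or 23 other ATF4 network genes passed.

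The comparison of 5-AZA with differentiated keratinocytes asks how these genes respond to 5-azacytidine. None of the 31 genes passed in limma, against 0.17% of all genes that rose and 0.115% that fell. Serine synthesis came closest: Phgdh and Psat1 both had lower means and the same adjusted p = 0.0564. At an unadjusted p under 0.05 in limma, 1 gene was higher (Eif2ak3) and 5 lower (Psat1, Phgdh, Gpt2, Mthfd2 and Slc7a11), against 6.01% and 3.08% of all genes. The test named in the methods called 1 higher and 3 lower without adjustment, against 4.51% and 2.12% of all genes, and 0 with it. At more than 0.5 on the log2 scale, 5 genes were lower (Psat1, Cth, Ddit4, Gpt2 and Phgdh) and 0 higher, against 2.09% and 1.89% of all genes. The median was −0.16 over these genes and 0.04 over all genes. Below 0 lay 22 of the 31 genes, against 7190 of all 18194 genes. Markers of other cells also moved: with 5-AZA the summed level was 10.81 to 11.28 for fibroblast, 12.55 to 12.59 for melanocyte and 8.05 to 8.37 for immune markers, against 9.69 to 10.64, 11.77 to 12.38 and 8.47 to 9.55 in differentiated arrays. Their part in the values below was not tested.

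Psat1 had log2 levels of 9.10 and 9.27 with 5-AZA against 9.94, 10.01, 10.28 and 9.88 in differentiated keratinocytes. The groups did not overlap, with a log2 fold change of −0.84 (SE 0.15). Its adjusted p ran from 0.0166 to 0.402 over 21 limma alternatives. Phgdh had 9.47 and 9.13 against 9.89 to 9.90, a log2 fold change of −0.59 (SE 0.10), with an adjusted p from 0.0377 to 0.485 over 20 limma alternatives. Phgdh passed with median centring and with quantile normalization. Psat1 passed with median centring, with the brightest probe set, without the probe sets ending in _x_at or _s_at, without the dimmest genes and with the hybridization controls as a covariate.
Gpt2 had 6.96 and 6.49 against 7.29, 7.09, 7.62 and 7.56 (log2 fold change −0.66, adjusted p = 0.316). Cth had 4.88 and 5.69 against 5.54, 5.21, 7.28 and 6.41 (−0.83, adjusted p = 0.67), with overlapping groups. All 5 serine and one-carbon enzymes and all 4 other enzymes had log2 fold changes below 0, and all 5 transcriptional regulators had ones above 0, from 0.10 to 0.43. Of all 18194 genes, 11004 lay above 0 and 7190 below, so the direction of the regulators was that of most genes. Eif2ak3 had 6.26 and 6.13 against 5.81, 5.59, 5.85 and 5.89 (0.41, SE 0.11, adjusted p = 0.217). Atf5 had 11.16 and 11.13, both above every differentiated array, with 0.43 (SE 0.29, adjusted p = 0.722). Ddit3 had 6.98 and 7.83, so its mean difference of 0.43 rested mainly on replicate 2.
In the related lists, Slc6a14 fell by 1.07 (SE 0.16, adjusted p = 0.0324), from 9.41 to 9.91 in differentiated arrays to 8.53 and 8.54. No other gene of those lists passed with 5-AZA.

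**Figure D4:**
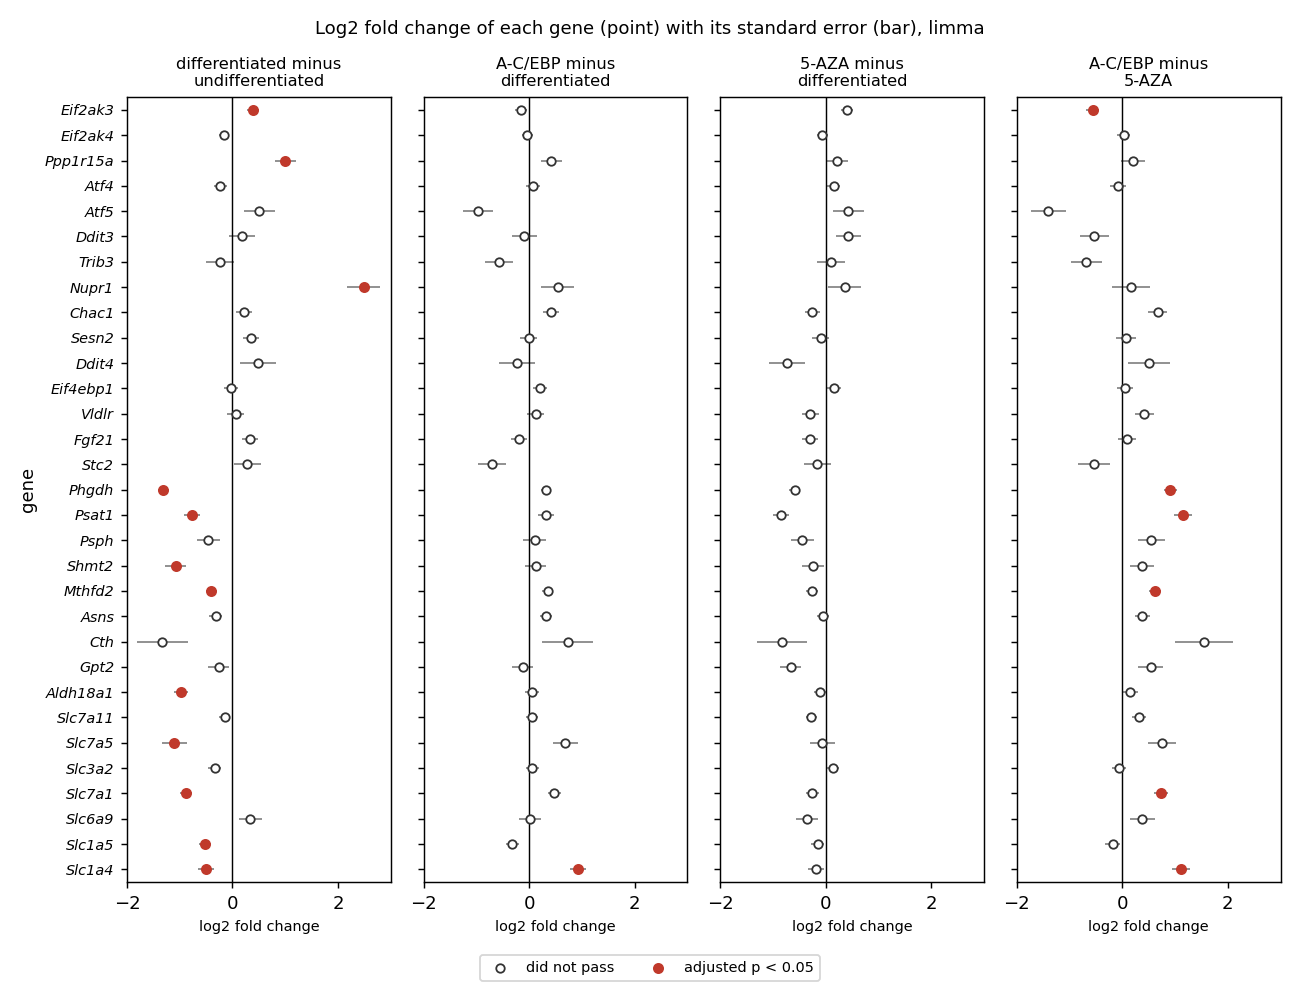
Log2 fold change of each of the 31 genes (points) with its standard error (bars) from limma in 4 comparisons, one panel each; filled points passed an adjusted p of 0.05 and open points did not. Filled points number 12 for differentiation, 1 for A-C/EBP, 0 for 5-AZA and 6 for A-C/EBP against 5-AZA.

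A-C/EBP and 5-AZA were then compared directly, which tests whether these groups differ, because the shared differentiated controls cancel. Here too, the transgene and doxycycline cannot be told apart from A-C/EBP itself. The serine synthesis genes Phgdh and Psat1, the folate enzyme Mthfd2 and the transporters Slc1a4 and Slc7a1 had higher levels with A-C/EBP than with 5-AZA, and the sensor Eif2ak3 had a lower one. Of the 31 genes, 5 were called higher and 1 lower with A-C/EBP, against 2.06% and 1.13% of all genes. The median difference was 0.32 over these genes and −0.03 over all genes, and 12 genes were higher and 3 lower at an unadjusted p under 0.05, against 7.73% and 7.71% of all genes.

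Psat1 was higher by 1.15 (SE 0.17, adjusted p = 0.00773), with 10.17 and 10.51 against 9.10 and 9.27. Phgdh was higher by 0.91 (SE 0.12, adjusted p = 0.00458), with 10.26 and 10.17 against 9.47 and 9.13, and this was the only one of the 6 calls that held when any single array was left out. In both genes the differentiated arrays lay between the treated groups, apart from differentiated Psat1 at 10.28, above the lower A-C/EBP array. Mthfd2 was higher by 0.62 (SE 0.12, adjusted p = 0.0252), with 9.10 and 9.15 against 8.49 and 8.53. Psph and Shmt2 had differences of 0.55 and 0.37 and did not pass.
Slc1a4 was higher by 1.11 (SE 0.17, adjusted p = 0.00925), with 7.40 and 7.15 against 6.27 and 6.07. Slc7a1 was higher by 0.73 (SE 0.13, adjusted p = 0.0199), with 8.12 and 8.30 against 7.51 and 7.43. The other 5 transporters did not pass, among them Slc3a2 at −0.06 and Slc1a5 at −0.18. Of the 4 other enzymes none passed, and Cth, at 6.91 and 6.76 against 4.88 and 5.69, had a difference of 1.55 (SE 0.55, adjusted p = 0.201).
Eif2ak3 was lower with A-C/EBP by a log2 difference of −0.56 (SE 0.12, adjusted p = 0.0397), with 5.64 and 5.63 against 6.26 and 6.13. Its call held under 8 of 21 alternatives and was lost without any one of the A-C/EBP, 5-AZA or undifferentiated arrays or differentiated replicate 1 or 4 (adjusted p from 0.0115 to 0.324 over 19 limma alternatives). Its probe sets gave −0.93, −0.72 and −0.03, so the difference did not appear in all of them. The −0.93 came from a dim probe set with a mean level of 3.51. Without probe sets ending in _x_at or _s_at, the limma adjusted p was 0.324. Atf5 had the largest difference below 0, −1.40 (SE 0.33, adjusted p = 0.0552), with 10.27 and 9.22 against 11.16 and 11.13, and was called under 9 of 21 alternatives. Chac1 had 0.67 (adjusted p = 0.0846), with 9.45 and 9.39 against 8.64 and 8.87.

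The calls rested on 2 arrays a group. With only these groups in the fit, none of the 31 genes passed. Without A-C/EBP replicate 2, Psat1 (0.98, adjusted p = 0.0625), Mthfd2 (0.60, 0.158) and Slc7a1 (0.64, 0.149) no longer passed, and Phgdh (0.95, 0.028) and Slc1a4 (1.24, 0.0296) did. Mthfd2 was also lost without any 1 of the other 3 arrays of these groups, Slc7a1 without either 5-AZA array and Slc1a4 without 5-AZA replicate 2. Over the limma alternatives the highest adjusted p was 0.0625 for Psat1, 0.158 for Mthfd2, 0.149 for Slc7a1, 0.0795 for Slc1a4 and 0.0882 for Phgdh. In the related lists, Slc1a1, Glul, Slc6a14 and Rragd were higher with A-C/EBP, by 1.99, 1.51, 1.49 and 0.67, as were the stress genes Gadd45a (1.55) and Atf3 (1.33), while Xbp1 (−0.73) and Ddr2 (−0.96) were lower. Of the 36 other amino acid genes, 6 were called higher, 1 lower and 29 did not pass, against 2.06% higher and 1.13% lower of all genes. Ddr2 is a collagen receptor of mesenchymal cells, and the summed level of 8 fibroblast markers moved the same way, 9.03 to 10.21 with A-C/EBP and 10.81 to 11.28 with 5-AZA. Keratinocyte markers summed to 14.76 to 14.82 with A-C/EBP and 13.96 to 14.48 with 5-AZA, and immune markers to 8.94 to 9.53 and 8.05 to 8.37. Their part in the differences between the treatments was not tested.

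Among the 4 differentiated arrays, which serve as controls of both treatments, these genes had a wider median range than all genes. It was 0.50 for the 31 genes and 0.33 for all genes. Replicate 2 held the lowest of the 4 values for 23 of the 31 genes, and for 50.8% of all genes. Replicates 3 and 4 held the highest value for 14 and 13 of them, and for 38.3% and 26.7% of all genes. The ranges were widest for Cth (2.07), Trib3 (1.03) and Ddit4 (0.93), none of which passed in any of the 4 comparisons, and narrowest for Phgdh (0.02), Slc1a5 (0.12) and Eif2ak4 (0.19). Trib3, for example, had 8.17, 7.92, 8.94 and 8.60, so that its replicates 3 and 4 were the high pair. Its undifferentiated arrays, at 8.47 and 8.83, fell inside that range.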

How the data were processed

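The authors deposited log2 values, 1 per probe set, made with the RMA method of Affymetrix Expression Console according to the submitters' processing notes, which give no version. RMA corrects the background and normalizes arrays to each other, so values are relative across arrays. These log2 values were used as deposited. Of 45101 probe sets, 34958 carried 1 gene symbol in the platform annotation, 932 several and 9211 none. The mean of the probe sets of a single symbol stands for the gene, and the others were left out. In the 22 listed genes with several probe sets, these differed in sign for 11 with A-C/EBP and for 6 on differentiation. With 5-AZA they did so for 4, and between A-C/EBP and 5-AZA for 2. No low values were removed from the 18194 genes.

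All 10 arrays entered 1 fit in limma 3.58.1 (R 4.3.3) with a mean per group, 6 residual degrees of freedom and moderated two-sided tests. P-values were adjusted over 18194 genes by the Benjamini-Hochberg method, and "rose" and "fell" mean an adjusted p under 0.05. Groups came from the titles; the description of A-C/EBP replicate 1 bears the number 2. The number of arrays limits the precision.

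The members and lists were chosen with earlier results of these data known. All measured members are named, and of each other list up to 3 genes that passed with the largest change in a comparison; promoter stretches beyond Nupr1 and Slc1a4 were chosen after their values were seen. Alternatives changed the scaling, the probe sets, the filter, the variance model, the arrays, the test and a covariate. The fit was tested on simulated data.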

Additional observations from a re-analysis of the deposited data

Results flagged for a closer look

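In 2 of the 31 genes, 1 of the 4 differentiated arrays lay far from the other 3, a gap that chance gives in about 1 in 20 such groups. Over 31 genes, 2 such gaps are near what chance gives. Ddit3 was at 7.36 in differentiated replicate 3 and at 6.83 to 6.85 in the others. Fgf21 was at 4.93 in differentiated replicate 2 and at 5.39 to 5.46 in the others. Without replicate 2, Fgf21 was called as higher after differentiation.

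The limma test of A-C/EBP against 5-AZA called 6 of the 31 genes, 5 higher and 1 lower, against 2.06% and 1.13% of all genes. With only these groups in the fit, none of them was called. The log2 difference was 1.15 for Psat1, 0.91 for Phgdh, 1.11 for Slc1a4, 0.73 for Slc7a1, 0.62 for Mthfd2 and −0.56 for Eif2ak3. In each of these genes both arrays of one treatment lay above both arrays of the other. The genes were picked by a test on these same arrays, which favours such a separation, so it adds no support.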

How the results depend on the processing

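No called gene changed direction under any alternative. Of the 12 calls on differentiation, 2 remained with the methods' t-test after adjustment (Phgdh and Slc7a1), and leaving out 1 array gave 6 to 12 calls, with Nupr1, Phgdh, Shmt2, Aldh18a1 and Slc7a1 called each time. The 1 call with A-C/EBP became 2 with the brightest probe set (Slc7a1 added), 0 with differentiated arrays 3 and 4 only, 5 with the t-test unadjusted and 0 adjusted, and 0 to 1 when 1 array was left out. The 0 calls with 5-AZA became 2 with median centring, 1 each with quantile normalization, the brightest probe set, without the _x_at and _s_at probe sets, without the dimmest 40% of genes and with the hybridization controls as a covariate, and 4 with the t-test unadjusted; it was 0 without each array. These were Psat1 or Phgdh, with Gpt2 and Eif2ak3 in the t-test. The 6 calls of A-C/EBP against 5-AZA became 0 with only the groups compared and 0 with the t-test adjusted, and 2 to 7 when 1 array was left out.

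Same-numbered arrays deviated together with r = 0.09 to 0.43 in 12 pairs, 11 of them above 0.1. The rule used asked for r above 0.1 in every pair, so the main fit was left unpaired. All 12 values were above 0, but they are not 12 separate observations. In a group of 2 arrays the deviations mirror each other, so pairs between such groups repeat their values (0.31, 0.40 and 0.23). Whether same-numbered arrays shared a batch was not tested. With the replicate block, calls went from 12 to 15 on differentiation (Asns, Psph, Slc3a2 and Cth added, Eif2ak3 lost; Cth at −2.06), from 1 to 5 with A-C/EBP (Chac1, Mthfd2, Slc7a5 and Cth added), from 0 to 1 with 5-AZA (Psat1) and from 6 to 10 between them (Atf5, Chac1, Slc7a5 and Cth added). Low signal limits Eif2ak4, Slc1a5 and Slc7a11, and 2 arrays a group limit every value.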
